A study of Mus musculus with 24 samples.

Results

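Csf1r, Adgre1, C1qa, C1qb, C1qc, Cd68, Mrc1, Fcgr1, Cx3cr1 and Lyz2 are genes by which macrophages are commonly recognised, and were followed here in bulk RNA-seq of whole mouse kidneys at embryonic day 18.5. They were chosen by name, with earlier results of these data known, and are 10 of the 54393 genes in the deposited count tables. The 24 libraries fall into 6 groups. Dmrt2 knockout kidneys (3 libraries) stand against control littermates of that line (3 libraries), and Hmx3; Hmx2 knockout kidneys (6 libraries) against control littermates of theirs (6 libraries). Kidneys labelled as triple knockouts of Dmrt2, Hmx3 and Hmx2 (3 libraries) stand against control littermates of the triple line (3 libraries). The labels call every animal knockout or control and describe neither the alleles nor a cell type in which the genes were removed. Sample titles do not give the genotypes behind the word control. The count columns of 3 of the 6 Hmx3; Hmx2 control libraries carry WT in their names, and those of all other controls name no genotype. The study was designed around intercalated cells, the acid-base regulating cells of the collecting duct, and no macrophages were sorted.

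Macrophages settle in the kidney during fetal life, at first from yolk sac and fetal liver precursors, and clear dying cells and debris while nephrons form. Their survival depends on the receptor encoded by Csf1r and its ligands CSF1 and IL34, and the fractalkine receptor Cx3cr1 reads CX3CL1 shown by epithelium and endothelium. C1qa, C1qb and C1qc encode the chains of C1q, the recognition unit of the classical complement pathway, which tissue macrophages secrete. Fcgr1 encodes the high-affinity IgG receptor, Mrc1 the mannose receptor CD206, Adgre1 the adhesion receptor F4/80, Cd68 a glycoprotein of late endosomes and lysosomes, and Lyz2 a secreted lysozyme that monocytes and neutrophils also make.

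Library totals ran between 52286824 and 127339273 counted reads, so that 3 reads, the least taken as detection, corresponded to 0.0236 to 0.0574 CPM, the counts scaled to a common library total. Among counts of 1 to 19, 90.2% were even, as arises where both reads of a pair are counted. The SE values given below come from the fitted tests and include the spread between libraries. The summed CPM of 10 genes of kidney tissue (epithelium, glomerulus, nephron progenitors and endothelium) lay between 2761 and 3272 in the 24 libraries. Dmrt2 had 2.14, 2.26 and 1.57 CPM in the Dmrt2 knockout libraries, against 12.2, 13.95 and 14.9 CPM in their controls. Hmx2 stood between 0 and 0.060 CPM in the Hmx3; Hmx2 knockout libraries, against 1.57 to 2.25 CPM in their controls, and between 0 and 0.021 CPM in the libraries labelled triple knockout, against 2.31 to 3.31 CPM in theirs. Hmx3 was near 0 in controls too. It had 0 to 0.065 CPM in the Hmx3; Hmx2 knockout libraries, against 0.033 to 0.137 CPM in their controls, with overlap. In the triple line it had 0 CPM in the libraries labelled triple knockout, against 0.018 to 0.131 CPM. Loss of Hmx3 could therefore not be judged from its reads. Dmrt2 reads went against the label of the triple line: they stood at 18.2, 17.7 and 19.2 CPM in the libraries labelled triple knockout, against 10.7, 12.1 and 11.6 CPM in the triple controls. Every direction given below for the triple line therefore refers to libraries labelled triple knockout.

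All 10 macrophage genes were read in all 24 libraries, with at least 118 reads per gene and library, and all 10 passed the filter on low counts in each comparison. Per kilobase of exon, C1qb was the most abundant, with 13.3 ± 1.56 CPM per kb (SD, n = 24 libraries). C1qa followed with 10.9 ± 2.08, Lyz2 with 8.04 ± 1.45, C1qc with 7.89 ± 0.863, Csf1r with 7.72 ± 1.39 and Cd68 with 6.13 ± 0.792 CPM per kb. Mrc1 had 2.85 ± 0.448, Cx3cr1 2.54 ± 0.294, Fcgr1 1.31 ± 0.308 and Adgre1 1.28 ± 0.324 CPM per kb. C1qb exceeded C1qa in 19 of 24 libraries, C1qa exceeded Lyz2 in 20, Csf1r exceeded Cd68 in 22, and Cd68 exceeded Mrc1 in 24. Lyz2 and C1qc changed places between libraries, Lyz2 being above in 12 of 24, as did C1qc and Csf1r (13 of 24) and Fcgr1 and Adgre1 (13 of 24). The coefficient of variation over the 24 libraries was smallest for C1qc, at 10.9%, and largest for Adgre1, at 25.2%.

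General leukocyte and myeloid markers lay in a similar range: Ptprc, which encodes CD45, had 9.70 to 13.9 CPM, Tyrobp, an adaptor of myeloid receptors, 2.89 to 4.80 CPM, and Spi1, which encodes the myeloid transcription factor PU.1, 3.53 to 7.10 CPM. Markers of lymphocytes, dendritic cells and mast cells were not alike in level. Some were at or near 0: Cd3e reached at most 0.108 CPM, Cd3d 0.0368, Ms4a1 0.081 and Xcr1 0.112 CPM, and Fcer1a had 0 reads in every library. Others of the same lists were read in every library, with Lck, a kinase of T cell receptor signalling, at 5.24 to 8.23 CPM, Cd8a at 0.422 to 2.17, the B cell genes Cd79b at 2.24 to 4.25 and Ighm at 1.85 to 4.32, Clec9a of dendritic cells at 1.60 to 3.76 and Ms4a2 of mast cells at 2.34 to 4.07 CPM. Summed over its list, the level was 6.22 to 10.5 CPM for T and NK cell genes and 5.34 to 8.34 CPM for B cell genes. The T and NK sum includes Lck, at 5.24 to 8.23 CPM by itself, and is not a measure of T cell RNA. Vsig4, a complement receptor of some resident macrophages, reached 0.0253 CPM. In whole kidneys, fewer cells of a type and less RNA per cell cannot be told apart.

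**Figure D1:**
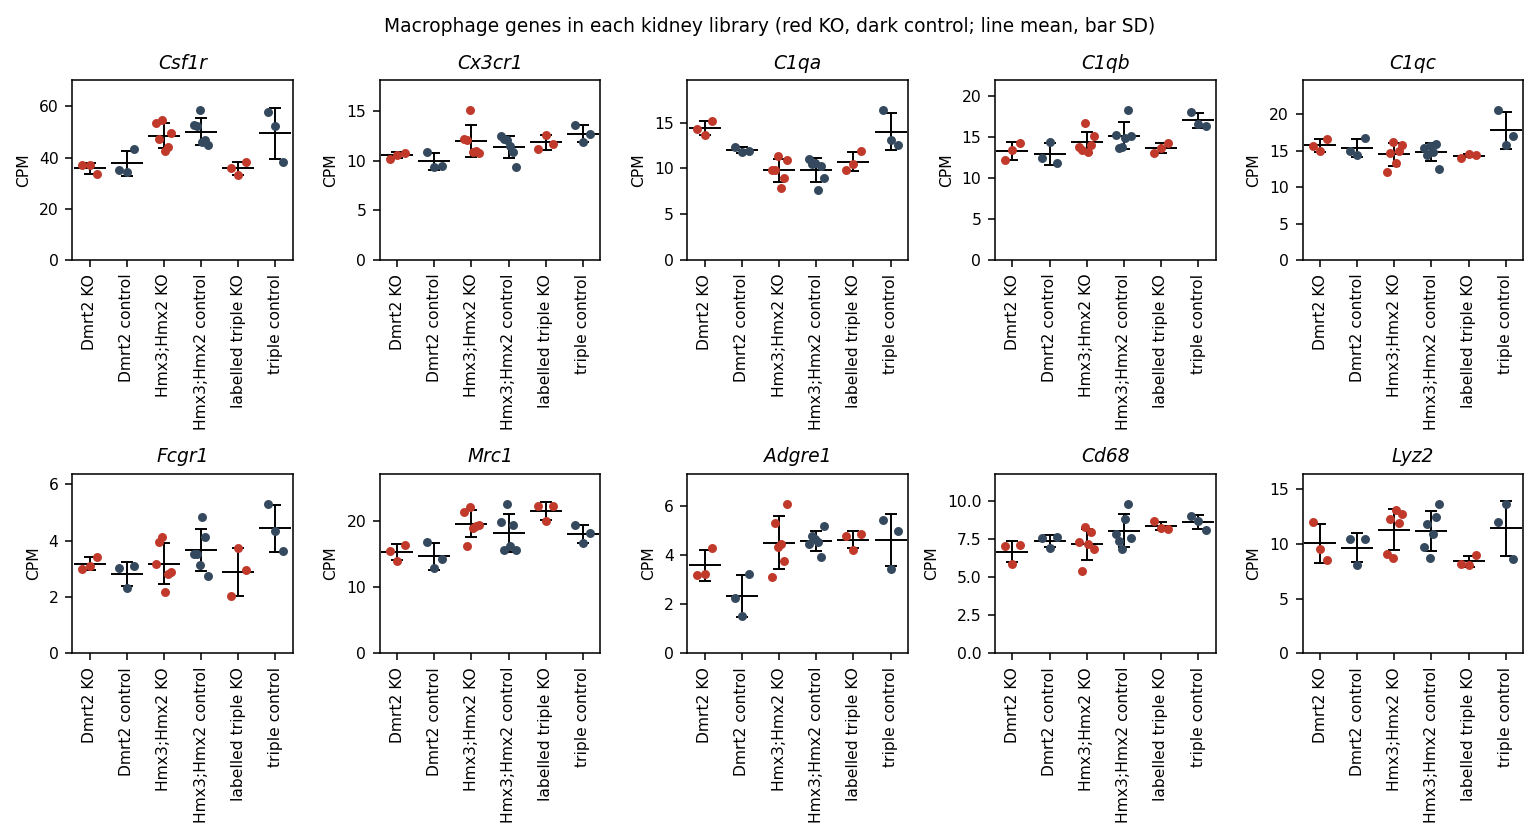
CPM of each of the 10 macrophage genes in each of the 24 kidney libraries (y axes from 0); red points are knockout libraries and dark points their controls, horizontal lines group means and bars SD. The 3 libraries labelled triple knockout lie below all 3 of their controls for C1qa, C1qb and C1qc and above them for Mrc1.

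In the libraries labelled triple knockout, set against the triple controls, 8 of the 10 genes had a negative log2 fold change, yet 0 of the 10 passed an adjusted p of 0.05, where 1.03% of the 21537 genes tested did (edgeR's quasi-likelihood test with Benjamini-Hochberg adjustment over all genes tested, as for every adjusted p-value below unless DESeq2 is named). At an unadjusted p under 0.05 stood 7 of the 10, 6 with lower and 1 with higher values in the libraries labelled triple knockout. Over all genes tested, 17.9% did so in either direction. The 10 genes were chosen with earlier results of these data known, so their counts beside such shares are a description. The median log2 fold change of the 10 genes was -0.31, against 0.00098 over all genes tested. In 3 of the 10, all libraries labelled triple knockout lay below all controls, and in 1 above, where 12.9% of all genes tested lay below and 11.6% above.

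Csf1r, the receptor that keeps macrophages alive, had 35.9, 33.2 and 38.5 CPM in the libraries labelled triple knockout, against 57.7, 52.4 and 38.3 CPM in the triple controls. Control replicate 3 lay within the range of the libraries labelled triple knockout, so the groups overlapped. The log2 fold change was -0.46 ± 0.16 (SE), with an edgeR adjusted p of 0.222. Without control replicate 3 it was -0.62 ± 0.073, with an edgeR adjusted p of 0.00121, and the adjusted p ran from 0.00121 to 0.475 over all alternatives tried. Csf1r lies on chromosome 18 (61233670 to 61265221, plus strand, mm39), and 15.1% of its exonic bases (873 bp) overlap exons of Hmgxb3 on the other strand, where the counting command in the file headers assigns a read to neither gene.

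Cx3cr1, on chromosome 9 (119730682 to 119898945, minus strand, mm39), had 11.2, 12.6 and 11.6 CPM in the libraries labelled triple knockout, against 13.6, 11.9 and 12.7 CPM in the triple controls. The ranges overlapped, and the log2 fold change was -0.10 ± 0.087 (edgeR adjusted p = 0.57).

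The C1q genes lie side by side on chromosome 4 of mm39, all on the minus strand, with C1qb at 136607440 to 136613498, C1qc at 136617115 to 136620376 and C1qa at 136623228 to 136626114. The gaps between them are 3616 bp from C1qb to C1qc and 2851 bp from C1qc to C1qa. C1qa had 9.84, 10.4 and 11.9 CPM in the libraries labelled triple knockout, against 16.4, 13.1 and 12.6 CPM in the triple controls. C1qb had 12.99, 13.6 and 14.2 CPM in the libraries labelled triple knockout, against 18.0, 16.6 and 16.4 CPM in the triple controls. C1qc had 14.1, 14.6 and 14.4 CPM in the libraries labelled triple knockout, against 20.6, 15.8 and 17.0 CPM in the triple controls. For each chain the groups did not overlap. The log2 fold changes were -0.38 ± 0.11 for C1qa (edgeR adjusted p = 0.131), -0.31 ± 0.079 for C1qb (edgeR adjusted p = 0.0875) and -0.31 ± 0.097 for C1qc (edgeR adjusted p = 0.15).

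Fcgr1, the high-affinity IgG receptor on chromosome 3 (96190225 to 96201285, minus strand, mm39), had 2.02, 3.73 and 2.95 CPM in the libraries labelled triple knockout, against 5.32, 4.35 and 3.64 CPM in the triple controls. Replicate 2 of the libraries labelled triple knockout lay just above the lowest control. The log2 fold change was -0.61 ± 0.22 (edgeR adjusted p = 0.207), the largest in size of the 10 genes and the one with the largest SE. Lyz2, on chromosome 10 (117113236 to 117118226, minus strand, mm39), had 8.22, 8.08 and 8.996 CPM in the libraries labelled triple knockout, against 11.98, 13.7 and 8.66 CPM in the triple controls. Triple control replicate 3 again lay within the other group's range. The log2 fold change was -0.43 ± 0.15 (edgeR adjusted p = 0.186), and without control replicate 3 it was -0.60 ± 0.10 (edgeR adjusted p = 0.0129), with adjusted p-values from 0.00237 to 0.431 over all alternatives. The transcript of Lyz2 is 95.8% identical to that of its neighbour Lyz1 over 1264 bp, so reads that could come from either may be missing from both counts, and Lyz1 itself stood between 0 and 0.152 CPM in the 24 libraries.

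Mrc1, the mannose receptor on chromosome 2 (14234203 to 14336868, plus strand, mm39), stood the other way, with 22.4, 20.0 and 22.3 CPM in the libraries labelled triple knockout, against 19.4, 16.7 and 18.2 CPM in the triple controls. All 3 libraries labelled triple knockout were above all controls. The log2 fold change was 0.26 ± 0.081 (edgeR adjusted p = 0.148). Cd68, on chromosome 11 (69555039 to 69556979, minus strand, mm39), had 8.69, 8.23 and 8.21 CPM in the libraries labelled triple knockout, against 9.06, 8.74 and 8.14 CPM in the triple controls (log2 fold change -0.04 ± 0.091, edgeR adjusted p = 0.85). Adgre1, on chromosome 17 (57665691 to 57790527, plus strand, mm39), had 4.79, 4.22 and 4.85 CPM in the libraries labelled triple knockout, against 5.41, 3.42 and 4.98 CPM in the triple controls (log2 fold change 0.01 ± 0.17, edgeR adjusted p = 0.982). Values of both genes overlapped between the groups.

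Calls in the triple line depended on the method. DESeq2 called 4 of the 10 genes, all lower in the libraries labelled triple knockout: Csf1r (DESeq2 adjusted p = 0.00504), C1qb (DESeq2 adjusted p = 0.00974), C1qa (DESeq2 adjusted p = 0.0308) and Lyz2 (DESeq2 adjusted p = 0.049), while it called 1085 genes in all where edgeR called 222. Over all alternatives the adjusted p of C1qa ran from 0.00396 to 0.302 and that of C1qb from 0.00974 to 0.226. With no filter on low counts edgeR called all 7 genes that had an unadjusted p under 0.05, among 1510 genes in all. The direction of the fold change was kept in all 14 alternatives for the 9 genes other than Adgre1. Without triple control replicate 1, which stood above its group mean for all 10 genes, the log2 fold changes were -0.34 ± 0.14 for Csf1r, -0.26 ± 0.10 for C1qa, -0.28 ± 0.085 for C1qb, -0.20 ± 0.083 for C1qc, -0.46 ± 0.24 for Fcgr1 and 0.31 ± 0.086 for Mrc1, and none passed (edgeR adjusted p from 0.138 for Mrc1 to 0.363 for Fcgr1).

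**Figure D2:**
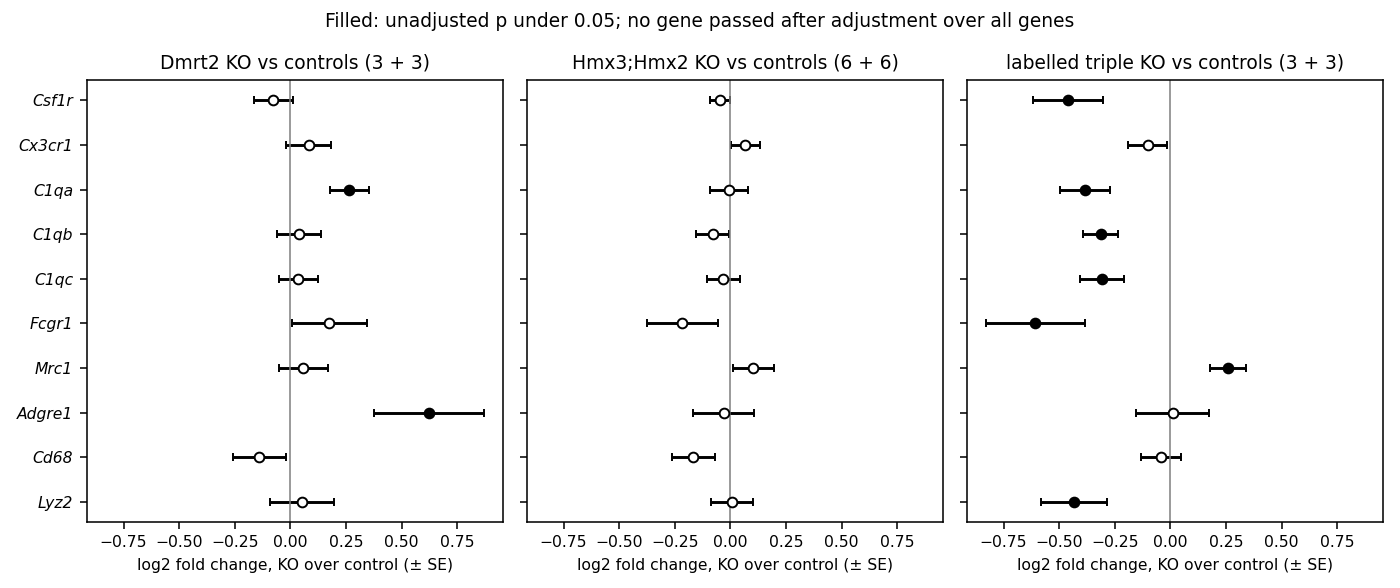
Log2 fold changes of the 10 macrophage genes, knockout over its own controls, with SE bars, in the 3 lines; filled points have an unadjusted p under 0.05 in edgeR's quasi-likelihood test. In the triple line 7 points are filled, 6 of them left of 0, in the Dmrt2 line 2 and in the Hmx3; Hmx2 line 0, and no point passed after adjustment.

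Promoters from RefSeq (GRCm38.p6, 250 bases before to 50 after the gene's start) were on hand for 7 of the 10 genes. They were read for GAGGAA, a core bound by PU.1 and other ETS factors, on both strands (TTCCTC on the other), and for 3 motifs that overlap it in letters. GAGGAA was present in 5 of the 7, once in C1qb, C1qc and Fcgr1, 2 times in Cd68, 3 times in Mrc1 and 0 times in Cx3cr1 and Lyz2, where 28.3% of 32851 promoters of the same length hold it. The first of the others, AGGAAG, was present in 5 of the 7 (35.4% of all promoters), the longer GAGGAAG in 3 of the 7 (13.6%) and the short core GGAA in 7 of the 7 (96.0%). Shown are C1qb and C1qc, whose libraries labelled triple knockout lay below all controls, and Mrc1, for which they lay above, each 5′ to 3′ on the gene's strand with GAGGAA or its complement in capitals, at chr4:136886151-136886450 (minus strand), chr4:136892865-136893164 (minus strand) and chr2:14229164-14229463 (plus strand) of GRCm38.p6.
C1qb: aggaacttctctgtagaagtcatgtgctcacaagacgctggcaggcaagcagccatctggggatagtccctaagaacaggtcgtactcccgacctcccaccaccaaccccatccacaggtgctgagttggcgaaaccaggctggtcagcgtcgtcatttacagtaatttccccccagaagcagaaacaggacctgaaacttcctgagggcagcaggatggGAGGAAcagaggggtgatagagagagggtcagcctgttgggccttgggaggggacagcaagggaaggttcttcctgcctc
C1qc: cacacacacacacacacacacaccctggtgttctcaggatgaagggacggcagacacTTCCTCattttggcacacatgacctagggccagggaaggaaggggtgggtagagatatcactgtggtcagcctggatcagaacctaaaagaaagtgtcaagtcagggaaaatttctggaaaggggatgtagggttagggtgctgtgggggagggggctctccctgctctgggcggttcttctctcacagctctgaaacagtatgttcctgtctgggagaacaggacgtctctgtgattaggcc
Mrc1: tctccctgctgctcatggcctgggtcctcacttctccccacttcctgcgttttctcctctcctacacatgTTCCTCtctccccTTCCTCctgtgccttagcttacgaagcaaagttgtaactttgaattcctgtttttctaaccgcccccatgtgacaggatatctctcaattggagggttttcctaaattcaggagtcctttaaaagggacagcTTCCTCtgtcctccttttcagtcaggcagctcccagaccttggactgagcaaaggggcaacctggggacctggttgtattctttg
The capitals read GAGGAA on the gene's own strand in C1qb and TTCCTC in C1qc and Mrc1. GAGGAA occurs in promoters of genes that stood on either side of their controls, and a match of letters is not a measure of binding.

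In Dmrt2 knockout kidneys 0 of the 10 genes passed the threshold with edgeR or DESeq2, where by edgeR 0.444% of 19807 genes did, and 2 had an unadjusted p under 0.05, where 12.3% did. By their Y-linked reads, 1 of 3 Dmrt2 knockout libraries and 3 of 3 controls came from males. With sex as a covariate 0 of the 10 had an unadjusted p under 0.05. Over all 19807 genes the number fell as well, from 2443 to 1290. The highest log2 fold change among the 10 was then 0.46. C1qa had 14.3, 13.7 and 15.2 CPM in Dmrt2 knockout libraries, against 12.3, 11.8 and 11.9 CPM in their controls. It was the 1 gene of the 10 whose groups did not overlap (knockout libraries were above all controls for 9.69% of all genes tested), with a log2 fold change of 0.27 ± 0.086 (edgeR adjusted p = 0.232). Adgre1 had 3.19, 3.25 and 4.29 CPM in Dmrt2 knockout libraries, against 2.24, 1.52 and 3.23 CPM in their controls. Knockout replicates 1 and 2 stood close to the highest control, and the log2 fold change was 0.62 ± 0.25 (edgeR adjusted p = 0.34). The gene passed only when low genes were not filtered out (edgeR adjusted p = 0.0451), over a range of 0.0451 to 0.855 among all alternatives.

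The other C1q chains did not share the position of C1qa in the Dmrt2 line. C1qb had 12.1, 13.4 and 14.2 CPM in Dmrt2 knockout libraries, against 12.5, 14.4 and 11.9 CPM in their controls (log2 fold change 0.04 ± 0.10, edgeR adjusted p = 0.92). C1qc had 15.7, 14.9 and 16.7 CPM in Dmrt2 knockout libraries, against 14.96, 14.5 and 16.8 CPM in their controls (log2 fold change 0.04 ± 0.087, edgeR adjusted p = 0.912). Csf1r averaged 35.8 ± 2.05 CPM in Dmrt2 knockout libraries and 37.8 ± 5.01 CPM in their controls (SD, 3 libraries each), with a log2 fold change of -0.08 ± 0.088. Mrc1 had 15.6, 14.1 and 16.4 CPM in Dmrt2 knockout libraries, against 16.9, 12.9 and 14.3 CPM in their controls, and Cx3cr1 had 10.2, 10.6 and 10.8 CPM in Dmrt2 knockout libraries, against 10.9, 9.38 and 9.47 CPM in their controls. Lyz2 spread more, with 12.04, 9.54 and 8.57 CPM in Dmrt2 knockout libraries, against 10.4, 8.12 and 10.5 CPM in their controls. Cd68 averaged 6.70 ± 0.690 CPM in Dmrt2 knockout libraries and 7.39 ± 0.386 CPM in their controls, and Fcgr1 averaged 3.18 ± 0.232 CPM in Dmrt2 knockout libraries and 2.82 ± 0.438 CPM in their controls (SD, 3 libraries each). These 5 genes had log2 fold changes between -0.14 for Cd68 and 0.18 for Fcgr1, and all overlapped between the groups. The median over the 10 was 0.056, against -0.0021 over all genes tested.

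In Hmx3; Hmx2 knockout kidneys, where 6 libraries stood on each side, 0 of the 10 genes passed the threshold with edgeR or DESeq2, or an unadjusted p under 0.05 with edgeR, against 0.021% and 4.93% of 19050 genes. Csf1r lay between 42.7 and 54.6 CPM (median 48.5) in Hmx3; Hmx2 knockout libraries, and between 45.04 and 58.5 CPM (median 49.6) in their controls. C1qa lay between 7.91 and 11.3 CPM (median 9.82) in Hmx3; Hmx2 knockout libraries, and between 7.68 and 11.1 CPM (median 10.4) in their controls. Mrc1 lay between 16.3 and 22.1 CPM (median 19.4) in Hmx3; Hmx2 knockout libraries, and between 15.7 and 22.7 CPM (median 17.8) in their controls. C1qb lay between 13.1 and 16.6 CPM (median 13.8) in Hmx3; Hmx2 knockout libraries, and between 13.7 and 18.2 CPM (median 14.96) in their controls. C1qc lay between 12.05 and 16.3 CPM (median 14.8) in Hmx3; Hmx2 knockout libraries, and between 12.6 and 15.9 CPM (median 15.1) in their controls. Fcgr1 lay between 2.17 and 4.13 CPM (median 3.04) in Hmx3; Hmx2 knockout libraries, and between 2.77 and 4.85 CPM (median 3.55) in their controls. Adgre1 ranged more widely among knockouts, between 3.09 and 6.08 CPM (median 4.40), than among controls, between 3.92 and 5.16 CPM (median 4.58), a difference in spread that was not tested. Each of these ranges overlapped, as did those of Cx3cr1, Cd68 and Lyz2, while 0.0787% of all genes tested did not overlap.

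Log2 fold changes in the Hmx3; Hmx2 line ran from -0.22 ± 0.16 for Fcgr1 to 0.10 ± 0.093 for Mrc1, with edgeR adjusted p-values of at least 0.944 for all 10 genes, and SE values from 0.045 for Csf1r to 0.16 for Fcgr1. The median was -0.031. The 12 libraries came in 2 deposited tables, and the median was -0.026 in the table of replicates 1 to 3 and 0.020 in that of replicates 4 to 6. Fcgr1 differed most between the tables, with a log2 fold change of -0.58 for replicates 4 to 6 and 0.14 for replicates 1 to 3.

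The differences between knockout effects were tested in 1 fit of all 24 libraries. Of the 10 genes, 0 passed for the triple effect minus the Dmrt2 effect, where 0.394% of 22101 genes did, and 6 had an unadjusted p under 0.05 (11.4% of all genes). C1qa came closest, with a difference of -0.65 ± 0.16 on the log2 scale (edgeR adjusted p = 0.0672), being below all its controls in the triple line and above all of them in the Dmrt2 line. DESeq2 called it (DESeq2 adjusted p = 0.0108), and so did edgeR without Hmx3; Hmx2 knockout replicate 6 (edgeR adjusted p = 0.0377) and with no filter (edgeR adjusted p = 0.0257), over a range of 0.0108 to 0.168 among all alternatives. With sex as a covariate, 2 of the 10 had an unadjusted edgeR p under 0.05 for the triple minus the Dmrt2 effect (2194 of 22101 genes tested). The median difference of the 10 was then -0.32, against -0.37 without the covariate. For the triple effect minus the Hmx3; Hmx2 effect 0 of 10 passed (0.968% of all genes) and 4 had an unadjusted p under 0.05 (13.3%), and for the Dmrt2 effect minus the Hmx3; Hmx2 effect 0 of 10 passed (0.154%) and 1 had an unadjusted p under 0.05, Adgre1 (7.67%). Csf1r passed in both differences with the triple effect when triple control replicate 3 was left out, at -0.54 ± 0.12 against the Dmrt2 effect (edgeR adjusted p = 0.0436) and -0.57 ± 0.10 against the Hmx3; Hmx2 effect (edgeR adjusted p = 0.00585). With that library kept, the differences were -0.39 ± 0.16 (edgeR adjusted p = 0.349) and -0.42 ± 0.14 (edgeR adjusted p = 0.159), and over all alternatives the adjusted p ran from 0.0436 to 0.556 and from 0.00585 to 0.354.

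The ligands of the macrophage receptors were read in the same libraries. Cx3cl1, the ligand of Cx3cr1, fell in the triple line, with 27.6, 28.1 and 25.0 CPM in the libraries labelled triple knockout, against 39.8, 36.6 and 33.2 CPM in the triple controls. The groups did not overlap, and the log2 fold change was -0.44 ± 0.075 (edgeR adjusted p = 0.0256), while 1.03% of genes tested passed. It kept its direction in all 14 alternatives, and lost the call when any 1 library of the triple line other than control replicate 3 was left out (edgeR adjusted p up to 0.128). Csf1, the ligand of the receptor that Csf1r encodes, had 19.1, 21.0 and 21.5 CPM in the libraries labelled triple knockout, against 26.9, 25.2 and 23.6 CPM in the triple controls, without overlap. Its log2 fold change was -0.29 ± 0.076 (edgeR adjusted p = 0.0997). Il34, the other ligand of that receptor, had 3.14, 2.37 and 2.29 CPM in the libraries labelled triple knockout, against 2.65, 2.63 and 2.18 CPM in the triple controls (log2 fold change 0.07 ± 0.18, edgeR adjusted p = 0.88).

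The same 3 ligands did not pass in the single lines. Log2 fold changes in Dmrt2 knockout kidneys were -0.13 ± 0.083 for Cx3cl1, 0.04 ± 0.079 for Csf1 and -0.03 ± 0.21 for Il34. In Hmx3; Hmx2 knockout kidneys they were -0.04 ± 0.096 for Cx3cl1, -0.05 ± 0.050 for Csf1 and -0.01 ± 0.13 for Il34. The difference for Cx3cl1 between the triple and the Dmrt2 effects was -0.31 ± 0.17 (edgeR adjusted p = 0.488), and that between the triple and the Hmx3; Hmx2 effects was -0.40 ± 0.14 (edgeR adjusted p = 0.204), so neither passed.

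Among 20 other markers of resident macrophages 19 were tested in the triple line, of which 1 rose and 0 fell. Stab1, a scavenger receptor shared by macrophages and some endothelium, had 106.2, 109.0 and 103.2 CPM in the libraries labelled triple knockout, against 93.5, 83.5 and 79.6 CPM in the triple controls (log2 fold change 0.32 ± 0.060, edgeR adjusted p = 0.0374). It lost the call without control replicate 2 or without any 1 of the libraries labelled triple knockout (edgeR adjusted p up to 0.132). Itgam, which encodes the integrin chain CD11b of monocytes, neutrophils and macrophages, had 0.314, 0.327 and 0.206 CPM in the libraries labelled triple knockout, against 0.644, 0.532 and 0.558 CPM in the triple controls (log2 fold change -1.03 ± 0.33, edgeR adjusted p = 0.151). The median over the 19 was -0.10, and 6 of the 19 had an unadjusted p under 0.05, 3 higher and 3 lower (17.9% of all genes tested). Of 5 other Fc receptor genes 0 passed (median -0.21), and Fcgr4, another activating IgG receptor, had 0.830, 0.949 and 0.946 CPM in the libraries labelled triple knockout, against 2.28, 1.46 and 1.48 CPM in the triple controls (log2 fold change -0.93 ± 0.23, edgeR adjusted p = 0.0855). Of 10 complement partners and receptors 0 passed (median -0.20), of 10 macrophage transcription factors 0 (median -0.027, with Spi1 at -0.28 ± 0.13), and of 10 lysosomal genes 0 (median -0.11). The 5 colony stimulating factor ligands and other receptors had 0 calls. Among them the receptor gene Csf2ra stood the other way from Csf1 (log2 fold change 0.28 ± 0.091, edgeR adjusted p = 0.164). Of 9 tested chemokine and chemokine receptor genes Cx3cl1 was the 1 call, and 7 had negative and 2 positive log2 fold changes. The largest were -1.09 ± 0.43 for Ccl3 (edgeR adjusted p = 0.219) and -0.72 ± 0.28 for Ccl12 (edgeR adjusted p = 0.215).

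Among markers of circulating myeloid cells, 5 of 6 classical monocyte genes and 5 of 6 tested neutrophil genes had negative log2 fold changes in the libraries labelled triple knockout, and 1 of each list a positive one. Of the 6 monocyte genes 1 fell, Plac8, with 25.3, 24.1 and 22.7 CPM in the libraries labelled triple knockout, against 34.0, 30.7 and 28.7 CPM in the triple controls (log2 fold change -0.37 ± 0.074, edgeR adjusted p = 0.042). Ly6c2, the classical monocyte surface marker, had 0.162, 0.337 and 0.189 CPM in the libraries labelled triple knockout, against 0.901, 0.663 and 0.494 CPM in the triple controls (log2 fold change -1.58 ± 0.38, edgeR adjusted p = 0.0804). F13a1, the coagulation factor XIII A chain of monocytes and some macrophages, stood the other way without overlap, with 16.6, 15.25 and 14.35 CPM in the libraries labelled triple knockout, against 11.4, 12.8 and 12.35 CPM in the triple controls (log2 fold change 0.34 ± 0.086, edgeR adjusted p = 0.0886). Of 8 neutrophil genes 6 were tested and 2 fell. S100a8, a calcium-binding protein abundant in neutrophils, had 0.486, 0.401 and 0.413 CPM in the libraries labelled triple knockout, against 1.09, 1.23 and 0.860 CPM in the triple controls (log2 fold change -1.28 ± 0.26, edgeR adjusted p = 0.0429). Ngp, a neutrophil granule protein, had 0.445, 0.253 and 0.396 CPM in the libraries labelled triple knockout, against 0.975, 1.44 and 0.842 CPM in the triple controls (log2 fold change -1.56 ± 0.31, edgeR adjusted p = 0.042). Camp, an antimicrobial granule peptide of neutrophils, had 0.101, 0.264 and 0.318 CPM in the libraries labelled triple knockout, against 0.184, 0.131 and 0.0915 CPM in the triple controls, with overlap (log2 fold change 0.76 ± 0.55, edgeR adjusted p = 0.497). Plac8, S100a8 and Ngp kept their direction in all alternatives, and each lost its call when any 1 library other than control replicate 3 was left out (edgeR adjusted p up to 0.166, 0.156 and 0.148).

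The median log2 fold change was -0.85 over the 6 monocyte genes and -0.97 over the 6 tested neutrophil genes. Their summed levels were 38.4 to 43.6 CPM for monocyte genes in the libraries labelled triple knockout, against 44.0 to 49.4 CPM in the triple controls, and 3.32 to 3.91 CPM for neutrophil genes in the libraries labelled triple knockout, against 5.98 to 8.44 CPM in the triple controls. Plac8 and F13a1, which stood on opposite sides of their controls, made up most of the monocyte sum in each of these libraries. The monocyte sum therefore mainly follows those genes and is not a measure of monocyte RNA. The part of monocytes and neutrophils in the lower values of Lyz2, Csf1r and Fcgr1 was not tested. Of 9 T and NK cell genes 3 were tested and 1 fell, Cd8a, with 0.425, 0.422 and 0.499 CPM in the libraries labelled triple knockout, against 1.67, 1.98 and 1.501 CPM in the triple controls (log2 fold change -1.93 ± 0.23, edgeR adjusted p = 0.00424, and at most 0.0322 over 14 alternatives), while Cd3e and Cd3d of the T cell receptor complex stayed at or below 0.0344 CPM in those 6 libraries. No call was made among 3 tested B cell genes, 7 dendritic cell and MHC class II genes, 5 mast cell genes, 8 erythroid genes (median 0.24), 10 kidney genes and 6 genes of adrenal gland, liver and muscle. Counting each gene once, 121 of 140 genes of these lists were tested in the triple line. Of these, 6 passed, 1 higher and 5 lower, where 1.03% of all genes tested passed. At an unadjusted p under 0.05 stood 32 of the 121, 26 of them lower, where 17.9% of all genes tested did so in either direction. DESeq2 called 17 of the 121, among them 4 of the 10 macrophage genes, and 1085 of 21537 genes in all. The lists were chosen with earlier results of these data known, and their genes may vary together. They therefore do not count as separate genes beside those shares. In the Dmrt2 line edgeR called 0 of 118 (0.444% of all genes), with 10 at an unadjusted p under 0.05 (12.3% of all genes). DESeq2 called 1 there (429 of 19807 genes in all). In the Hmx3; Hmx2 line edgeR called 0 of 118 (0.021% of all genes), with 5 at an unadjusted p under 0.05 (4.93% of all genes). DESeq2 called 0 there (5 of 19050 genes in all). Neutrophil genes summed to 4.01 to 5.58 CPM in Dmrt2 knockout libraries, against 6.39 to 6.47 CPM in their controls. Yet 0 of the 6 tested neutrophil genes passed in that line (edgeR adjusted p from 0.29 to 0.763). In that line 1 of 3 knockout libraries and 3 of 3 controls were male, and the part of sex in this sum was not tested.

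**Figure D3:**
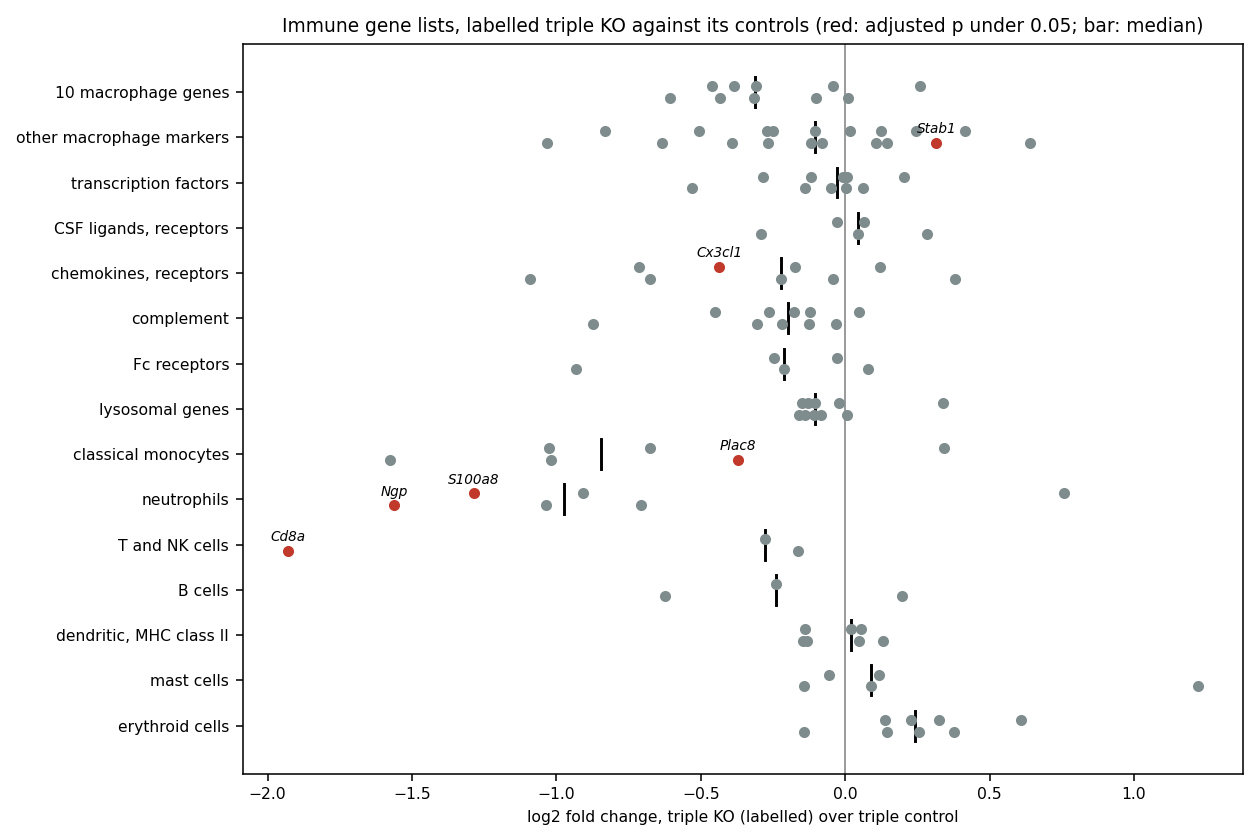
Log2 fold changes, libraries labelled triple knockout over triple controls, of each tested gene of the macrophage list and of 14 related lists (points; red with an edgeR adjusted p under 0.05, black bars list medians). Cx3cl1, Plac8, S100a8, Ngp and Cd8a are red left of 0 and Stab1 right of 0, and no red point lies among the 10 macrophage genes.

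Libraries of 1 group also differed among themselves, and the 10 genes were compared by their deviations from the mean of the group within its table over 24 libraries. Of the 45 pairs, 38 had a positive Pearson r, with a median of 0.278, and 0.227 without the 2 libraries farthest out. C1qa and C1qb varied together most, with r = 0.70 (adjusted permutation p = 0.0193 over the 45 pairs, 100000 permutations within groups) and rho = 0.60 (adjusted permutation p = 0.117). Without the 2 farthest libraries r was 0.69. Within tables r was 0.98 for Hmx3; Hmx2 replicates 1 to 3, 0.88 for replicates 4 to 6 and 0.98 in the triple line, and 0.14 in the Dmrt2 line (6 libraries each). For C1qc and Fcgr1 rho was 0.74 (adjusted permutation p = 0.0261) and r was 0.66 (adjusted permutation p = 0.0603), and 0 pairs passed by both measures. Lyz2 stood apart, with a median r of -0.095 with the other 9 genes. The pooled values share depth and scaling within a library.

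**Figure D4:**
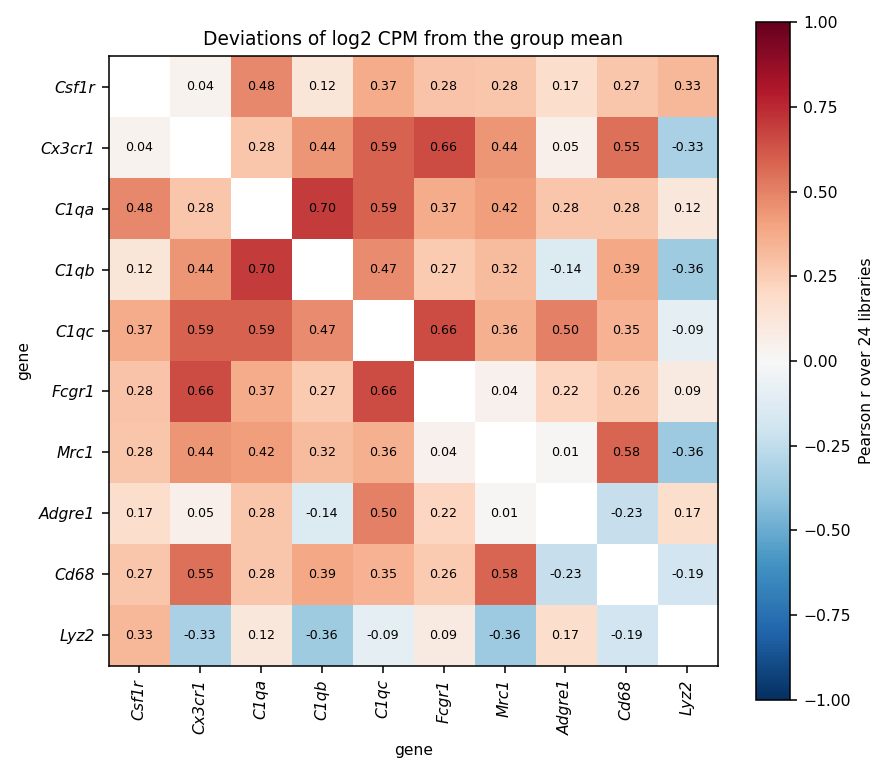
Pearson r between each pair of the 10 macrophage genes, over 24 libraries, from deviations of log2 CPM from the group mean within its table (colour from -1 to 1, values printed). The highest value is 0.70 for C1qa and C1qb, and 5 of the 9 values in the row of Lyz2 are negative.

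The 12 genes whose deviations were most like the mean of the 10 genes, out of 15039 genes of at least 1 CPM, were Gbp2, Dhx58, Parp9, Slfn8, Stat2, Iigp1, Rnf31, Tap1, Parp12, Ifit2, Zfp174 and Gch1. Their Pearson r with that mean ran from 0.81 for Gbp2 to 0.76 for Gch1 over 24 libraries, as a description of these libraries. Gbp2, an interferon-inducible GTPase, Dhx58, an RNA sensor, Stat2, a transducer of type I interferon signals, Tap1, a peptide transporter of antigen presentation, and Ifit2, an antiviral protein, are all known as interferon-responsive. The median r with the mean was 0.548 for the 10 genes themselves, each being part of it, 0.252 for 16 other macrophage markers and -0.355 for 7 erythroid genes, against -0.004 over all 15039 genes. Within tables r for Gbp2 was 0.63 in the Dmrt2 line, 0.998 for Hmx3; Hmx2 replicates 1 to 3, 0.76 for replicates 4 to 6 and 0.87 in the triple line.

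In the triple line 8 of these 12 genes lay below all controls in all libraries labelled triple knockout, where 12.9% of all genes tested did, and 1 passed the threshold, where 1.03% did. The 12 were chosen for varying together over these libraries, so they do not count as 12 separate genes beside those shares. Tap1 fell, with a log2 fold change of -0.58 ± 0.11 (edgeR adjusted p = 0.0429), and Gbp2 had -0.76 ± 0.20 (edgeR adjusted p = 0.0984). Rnf31 (0.04 ± 0.058) and Zfp174 (-0.01 ± 0.11) stood near 0, with overlap. Over the 12 the median was -0.54 in the triple line, 0.017 in the Dmrt2 line and -0.080 in the Hmx3; Hmx2 line. Triple control replicate 1 was above its group mean for 10 of the 10 macrophage genes, by 0.17 on average on the log2 scale, and triple control replicate 3 was above it for 2 of the 10, with an average deviation of -0.12.

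**Figure D5:**
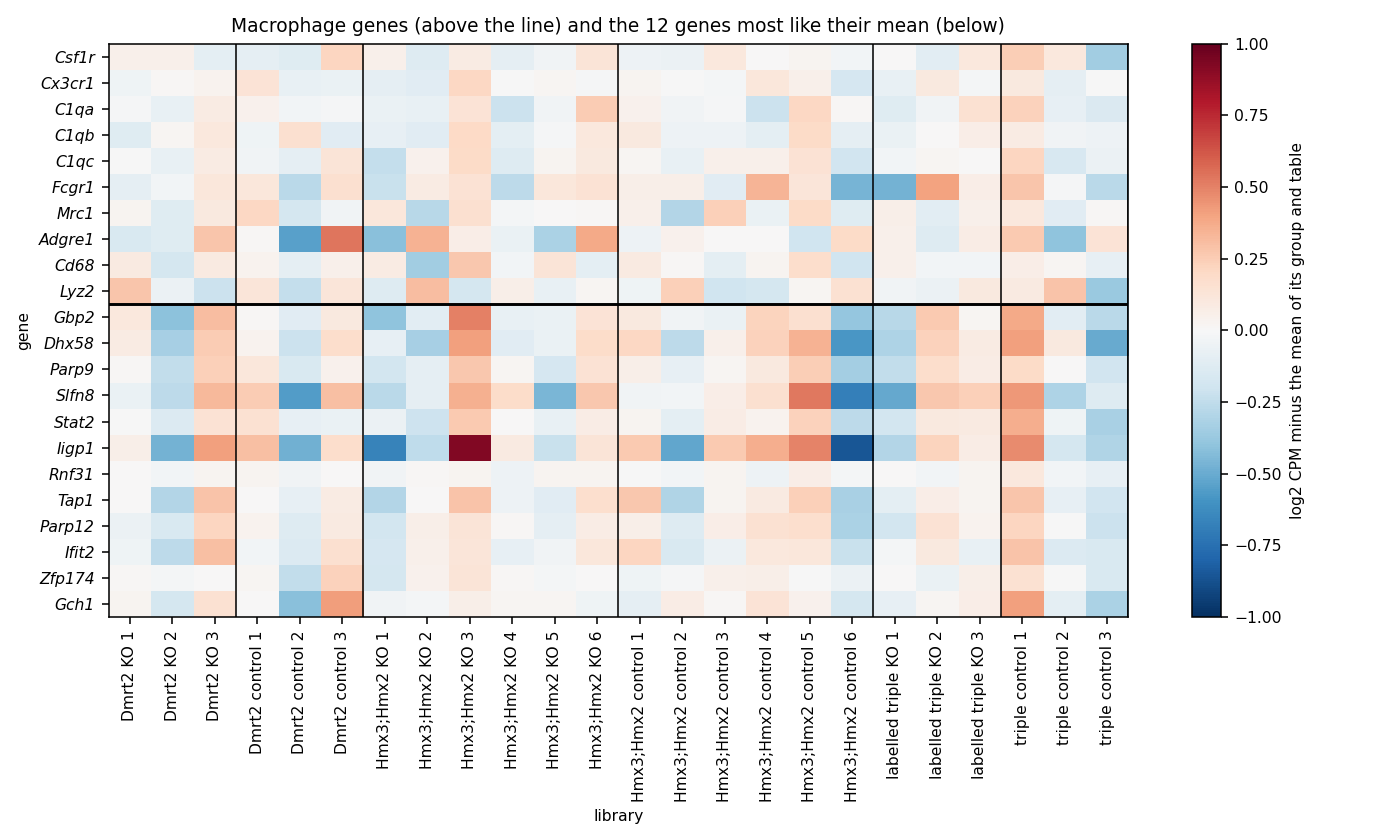
Deviation of log2 CPM from the mean of its group and table (colour, -1 to 1) for the 10 macrophage genes, above the line, and the 12 genes most like their mean, below it, in 24 libraries ordered by group. Triple control 1 is above its group mean in all 10 macrophage genes, and the deviations of the genes below the line follow those above it because they were chosen for that likeness.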

How the data were processed

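RNA of whole kidneys at embryonic day 18.5 was poly(A)-selected and sequenced with 150 bp reads. The deposited values are counts of reads per gene, in 4 tables, 1 column per library. Per the submitters' processing notes, the authors trimmed reads with fastp 0.20.1 and aligned them to mm39 with STAR 2.7.0e. They counted them with featureCounts, 2.0.1 per those notes and 2.0.3 per the file headers, over exons of a filtered GENCODE M29 annotation, with no strand, overlap or multi-mapping option. The tables also give each gene's exonic length in bp, per the file headers; 2 columns matched no sample and were not used, and 0 rows lacked a gene name.

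From these counts, genes past filterByExpr (minimum 10 reads, total 15) were tested in each line with edgeR 4.0.16 in R 4.3.3 (TMM scaling, robust quasi-likelihood fit, Benjamini-Hochberg adjustment over all genes tested, threshold 0.05). The Hmx3; Hmx2 line had the deposited table as a term, and differences between knockout effects came from 1 fit of 24 libraries with table terms. SE values were taken from each log2 fold change and its F statistic (the ratio of the change to √F). CPM were scaled by TMM over the 24 libraries. The fits were tested on simulated data. Alternatives were DESeq2 1.42.0, other scaling, filters and covariates, halved counts, a replicate block, single tables and leaving out each library. The labels name no shared litter for equal replicate numbers, nor that each library is a separate embryo, so p-values measure only the spread between these samples, which may be technical in part. By Y-linked reads, every group but the Dmrt2 controls held libraries of both sexes, and so of more than 1 embryo.

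The 10 genes and the lists of ligands, partners and cell markers were chosen with earlier results of these data known. Besides the 10 genes, the text names list genes past the threshold or among the 2 largest log2 fold changes of a list, both CSF1 receptor ligands, Cx3cl1, the targeted genes and the 12 genes most like the mean of the 10. Spi1, Tyrobp, Ptprc, other leukocyte markers and Lyz1 are named for their levels, and F13a1 and Camp were chosen after their values were seen. Within a group, 24 pairs of libraries from the same table were compared, and all differed by more than counting noise (lowest chi-square per degree of freedom 5.61).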

Additional observations from a re-analysis of the deposited data

Results flagged for a closer look

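Among the 10 macrophage genes in the 2 Hmx3; Hmx2 groups of 6 libraries, 20 tests for a single distant library were made, and 2 found one, where chance alone gives about 1 in 20. Cx3cr1 stood at 15.05 CPM in Hmx3; Hmx2 knockout replicate 3, while the other knockout libraries lay between 10.7 and 12.2 CPM. C1qb stood at 18.22 CPM in Hmx3; Hmx2 control replicate 5, while the other controls lay between 13.7 and 15.2 CPM. Groups of 3 libraries were not examined in this way.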

How the results depend on the processing

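Over 6 comparisons, each of the 10 genes kept its side of the threshold in 1420 of 1440 results of alternatives, and in 20 it passed where the value reported above did not. The sign of a fold change that passed in neither changed in 65 of 1440, of which 3 in the triple line, all for Adgre1. None of the values reported above for the 10 genes was called, so there was no call that could reverse. The median of the 10 genes moved by less than the spread between libraries in all 144. The number of genes called in all was less stable, moving by more than 1.5 times in 30 of 144 alternatives, and the number of the 10 genes called moved in 10 of 144. The cause was not tested.

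For the Dmrt2 line, 88 genes became 429 with DESeq2, 676 with no filter on low counts (1 of the 10 macrophage genes) and 13 with embryo sex as a covariate. For the Hmx3; Hmx2 line, 4 became 2 with a mean of at least 1 CPM, 2 in replicates 1 to 3 alone and 2 in replicates 4 to 6 alone. For the libraries labelled triple knockout, 222 became 1085 with DESeq2 (4 of the 10), 1510 with no filter (7 of the 10, Mrc1 higher and 6 lower), 573 in the fit of all 24 libraries (1 of the 10, Csf1r), and 51 with a replicate block. DESeq2 gave 94 genes for the Dmrt2 minus Hmx3; Hmx2 effect, 254 for the triple minus Dmrt2 effect (1 of the 10) and 551 for the triple minus Hmx3; Hmx2 effect, where a mean of at least 1 CPM gave 333; no filter called 1 of the 10 for the triple minus Dmrt2 effect.

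Leaving out 1 library gave 26 to 195 genes in the Dmrt2 line (26 without knockout replicate 2, 195 without control replicate 1), 4 to 4 in the Hmx3; Hmx2 line and 20 to 438 in the triple line (20 without knockout replicate 3, 438 without control replicate 3), with 0 to 2 of the 10 macrophage genes called. For the differences it gave 13 to 49 (Dmrt2 minus Hmx3; Hmx2), 37 to 118 (triple minus Dmrt2, 0 to 1 of the 10) and 49 to 279 (triple minus Hmx3; Hmx2, 0 to 1 of the 10). The replicate block called 80 genes in the Dmrt2 line, 5 in the Hmx3; Hmx2 line, 51 in the triple line, and 34, 84 and 286 for the 3 differences. Same-numbered libraries did not deviate together throughout, with correlations of 0.06 to 0.17 in the Dmrt2 line, -0.13 to 0.38 in the Hmx3; Hmx2 line and -0.42 to -0.13 in the triple line, so the numbers are not taken as pairs.

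With 3 libraries a side, SE values of 0.079 to 0.25 on the log2 scale limit what the Dmrt2 and triple lines could show for these genes, of which Fcgr1 and Adgre1 had the fewest reads.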
